A study of Mus musculus with 4 samples.

Results

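The transcription factor p53, encoded by Trp53 in the mouse, and 9 of its classical DNA damage targets (Cdkn1a, Mdm2, Bbc3, Pmaip1, Ccng1, Zmat3, Eda2r, Phlda3 and Sesn1) were measured by bulk RNA sequencing of metastasis-bearing lungs. These 10 genes were taken by symbol from the 56748 genes of the count table, and each symbol matched 1 gene. The rule uses the gene symbol and no measured level. No gene of the 15167 tested, these 10 included, passed an adjusted p of 0.05 in edgeR's quasi-likelihood test of treated against control lungs. Cdkn1a, the p53 target that stops the cell cycle, stood at 53.4 and 47.3 CPM in the controls and at 44.1 and 55.4 CPM after treatment, where CPM is a gene's reads expressed relative to a common library size.

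The p53 protein is held low in unstressed cells by Mdm2, a ubiquitin ligase that marks it for degradation and whose gene p53 itself switches on. When DNA breaks, the kinases Atm and Atr and their partners free p53 from Mdm2, and the stabilised protein binds response elements near its target genes. The targets then stop the cell cycle, repair DNA, adjust metabolism or start apoptosis, and several of them act back on p53. Because p53 is controlled mostly at the protein level, the RNA of its targets is the usual transcript readout of its activity. Inhibitors of PARP, an enzyme that helps to mend single-strand breaks, leave breaks unrepaired. In cells with working p53, the RNA of these genes is one readout of the response to such breaks.

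The lungs came from female BALB/cJ mice that were 7 weeks old when luciferase-marked 4T1 cells (4T1-FLuc) were injected into the tail vein. 4T1 is a BALB/c mammary carcinoma line used as a model of triple-negative breast cancer (TNBC), and it is generally described as p53-deficient. In tumour cells without p53 these genes cannot report its activity, and the bulk values do not separate tumour cells from host lung. Unchanged values therefore do not show that the tumour cells had no damage response. Control mice received saline (2 libraries, called PBS control in the sample labels). The other 2 libraries came from mice given cmLumiOpto/PARPi for 3 weeks, which combined 3 agents: exosome-wrapped AAV targeted with an anti-CD276 antibody and carrying cmLumiOpto, a light-driven channel of the mitochondrial inner membrane with its own luciferase; ViviRen, the luciferase substrate; and olaparib, which inhibits PARP, at a dose of 50 mg/kg. For this model the study describes 2 intravenous injections of cmLumiOpto, so the 3 weeks were not continuous dosing with it. No library here came from mice given olaparib alone or cmLumiOpto alone, so the effects of the agents cannot be told apart. Both groups carried 4T1-FLuc metastases, and no tumour-free lung was measured. The labels do not say whether the libraries of a group came from separate mice, so the p-values describe the spread between these libraries.

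Total gene counts were 15263375 to 16755228 per library, and 3 counts, taken as the limit of detection, corresponded to 0.179 to 0.197 CPM, a limit that covers counting error only. The labels call the material tumour cells and the study's methods call it lung tissue. The tumour epithelium list of 10 genes (among them Krt8, Krt18 and Epcam, with Krt5 near 0) summed to 2832 to 3947 CPM in every library. Krt8 was at 996 to 1638 CPM and Krt18 at 738 to 1259 CPM, so these genes carried most of the sum. How far lung epithelium added to it was not tested, and the sum is not a measure of tumour content. Of the receptors that define TNBC by their absence, Pgr had at most 4 counts. Esr1 was at 12.7 to 19.7 CPM and Erbb2 at 51.9 to 87.6 CPM. Lung cell markers were present in every library, and the alveolar type 1, alveolar type 2, airway and fibroblast lists moved with the groups. So did the B-cell list at low levels, with sums of 4.95 and 2.11 CPM with saline against 11.3 and 8.11 CPM with treatment. The 8 alveolar type 2 markers summed to 1717 and 463 CPM with saline, against 8312 and 2969 CPM with treatment. Sftpc made up much of that sum (1019 and 176 against 6142 and 2089 CPM). Both treated values were higher for 7 of the 8, while Abca3 was lower (147 and 129 against 124 and 93.9 CPM). The 8 airway markers summed to 1154 and 82.5 CPM against 5692 and 2988 CPM, mostly from Scgb1a1, and both treated values were higher for all 8. The 6 fibroblast markers went the other way, from 5082 and 3501 CPM to 1631 and 1838 CPM. The share of these cell mixtures in the values below was not tested, and in bulk tissue fewer cells of a type and less RNA per cell cannot be told apart.

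**Figure D1:**
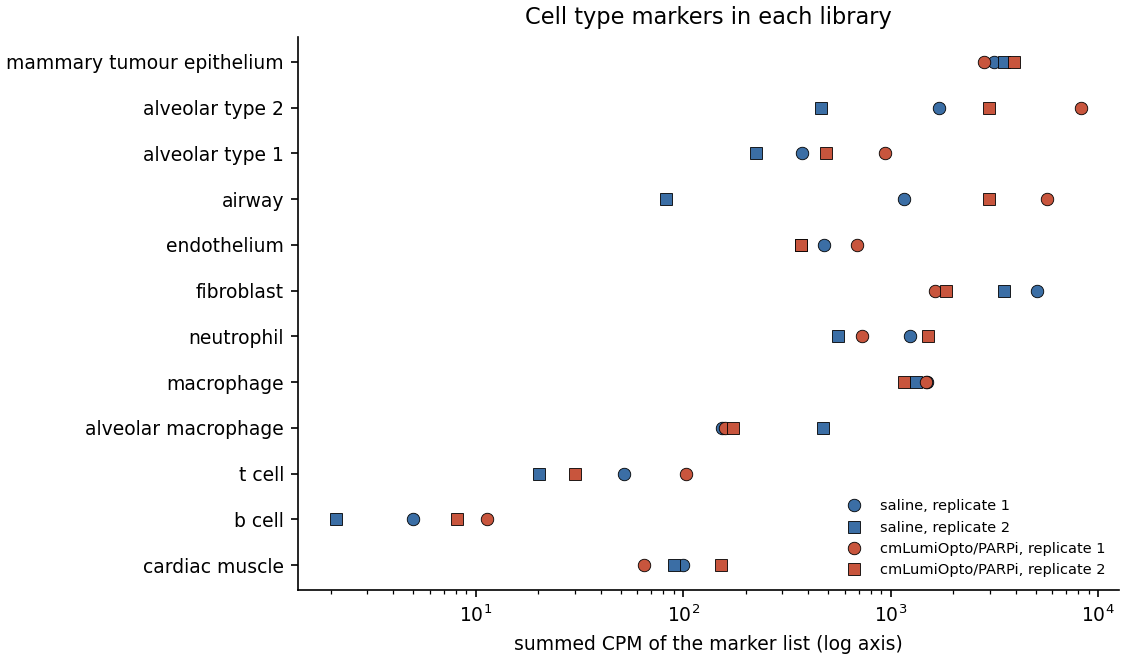
Summed CPM (log axis) of the fixed marker list of each cell type, 1 point per library, circles for replicate 1 and squares for replicate 2. The tumour epithelium list spans 2832 to 3947 CPM, a sum that does not separate tumour from lung epithelium. The treated libraries lie to the right of both saline libraries for alveolar type 1, alveolar type 2, airway and B-cell markers and to the left for fibroblast markers.

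Binding elements for p53 are built from a pair of 10-base units (decamers), separated by a spacer of up to 13 bases, each with the core CNNG in which N is any base. RefSeq promoter sequences, spanning 250 bases before to 50 bases after a transcription start on the GRCm38.p6 build, were on hand for 8 of the 10 genes. They were searched with the p53 consensus decamer, which reads the same on both strands, allowing at most 2 mismatches over the 20 bases. Such a pair of decamers lay in the promoter of 3 of the 8 genes, Cdkn1a, Ccng1 and Sesn1, and in 4.44% of 17492 protein-coding genes (777 genes). Those 3 stretches are shown because they hold the closest matches among these genes, and the capitals mark the decamers that match. A match is a description of the letters and not evidence of binding.
Cdkn1a: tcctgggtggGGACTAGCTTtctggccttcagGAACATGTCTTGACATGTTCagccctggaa
Ccng1: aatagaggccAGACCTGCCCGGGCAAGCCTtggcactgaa
Sesn1: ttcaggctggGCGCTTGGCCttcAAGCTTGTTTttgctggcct
In Cdkn1a the decamers were at chr17:29090906-29090915, chr17:29090928-29090937 and chr17:29090938-29090947 on the forward strand. The first and the second matched at every base with a spacer of 12 bases. The third followed the second directly, with no spacer, and had 1 mismatch. Which of these decamers p53 binds was not tested. All 3 decamers stood before the upstream one of 2 annotated starts. The pair that matched at every base lay between 2863 and 2832 bases upstream of the other start. In Ccng1 the pair was at chr11:40755462-40755481 on the reverse strand, 195 to 176 bases before the start, with 1 mismatch and no spacer. In Sesn1 it was at chr10:41887253-41887275 on the forward strand, 186 to 164 bases before the second of 2 starts, with 2 mismatches and a spacer of 3 bases.

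Trp53 itself (chromosome 11, 69471185 to 69482699, forward strand; positions of genes are those of the count table, mm39 per the submitters' processing notes) was at 49.6 and 45.8 CPM in saline lungs and at 36.9 and 40.9 CPM in treated lungs. The treated pair lay below the saline pair, at 38.9 ± 2.81 against 47.7 ± 2.69 CPM (SD, n = 2 each). The fitted fold change was 0.816, with a 95% interval of 0.634 to 1.05, and the p-value after Benjamini-Hochberg adjustment over 15167 tested genes was 0.309 in the quasi-likelihood test of edgeR. A processed pseudogene, Trp53-ps, had 8 counts in every library, against 643 to 792 for Trp53. An antisense transcript that overlaps Trp53 by 324 bases had 3 to 12 counts. RNA levels do not report the stability of the p53 protein, which was not measured in these libraries.

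Mdm2 (chromosome 10, 117524780 to 117546663, reverse strand), the ligase that degrades p53 and is also its target, was at 49.0 and 66.2 CPM in saline lungs and at 54.3 and 59.1 CPM after treatment. Both treated values fell inside the range of the saline pair. This gave a fold change of 0.985 (95% interval 0.718 to 1.35, adjusted p = 0.961).

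The arrest target Cdkn1a (chromosome 17, 29309950 to 29319701, forward strand) encodes p21, an inhibitor of cyclin-dependent kinases, and is the gene most often used as a readout of p53. It had 852 and 695 counts in saline lungs, against 767 and 922 in treated lungs. The highest and the lowest CPM of the 4 libraries, 55.4 and 44.1, were both treated, and the saline values lay between them. The fold change was 0.988 with a 95% interval of 0.736 to 1.33 (adjusted p = 0.967), and a change of 2-fold in either direction lay outside that interval. Ccng1 (chromosome 11, 40639379 to 40646138, reverse strand), which encodes cyclin G1, a partner of protein phosphatase 2A that acts back on Mdm2, was at 78.6 and 62.4 CPM against 77.8 and 66.8 CPM. Here the saline libraries held both the highest and the lowest value. Treated over saline, the ratio was 1.03 (0.767 to 1.38, adjusted p = 0.920). The 2 genes with the closest p53 letters in the windows searched had fitted differences of -0.02 and 0.04 on the log2 scale.

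The apoptosis targets Bbc3 and Pmaip1 encode PUMA and NOXA, proteins with a BH3 motif that neutralise the survival proteins of the Bcl-2 family. Bbc3 (chromosome 7, 16042318 to 16052130, forward strand) was at 8.14 and 7.22 CPM in saline lungs and at 11.0 and 9.85 CPM in treated lungs, from 130 and 106 counts against 191 and 164. It was the only 1 of the 10 genes for which the treated pair lay above the saline pair. The group levels were 10.4 ± 0.792 against 7.68 ± 0.656 CPM (SD, n = 2 each), and the fold change was 1.36 (0.881 to 2.09, adjusted p = 0.360). Its log2 fold change was 0.44, and 0.13 after the trend with transcript length and expression level described below was removed. Pmaip1 (chromosome 18, forward strand) was at 13.9 and 18.4 CPM in saline and at 10.8 and 16.6 CPM in treated lungs. Replicate 2 was above replicate 1 in both groups, and the groups overlapped. The fitted ratio was 0.851 (0.515 to 1.41, adjusted p = 0.677).

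Eda2r and Zmat3 are targets whose products act in cell death and in RNA processing. Eda2r (chromosome X, 96377446 to 96420822, reverse strand), a receptor of the tumour necrosis factor family, had 29 and 13 counts in saline lungs, against 25 and 18 in treated lungs. The treated values lay between the saline ones. The 95% interval ran from 0.354 to 2.45-fold (adjusted p = 0.936), so it held a 2-fold change in either direction. The saline libraries of Eda2r differed by 1.04 on the log2 scale. The parts of read depth and of library spread in the width of the interval were not tested. Zmat3 (chromosome 3, 32388941 to 32420163, reverse strand), a zinc finger protein that binds RNA, was at 34.7 and 24.5 CPM in saline and at 19.9 and 22.2 CPM in treated lungs. The groups did not overlap, but the saline libraries differed from each other by 0.50 on the log2 scale, more than the 0.47 between the group means. The fold change was 0.711 (0.485 to 1.04, adjusted p = 0.273), with an unadjusted p of 0.0723 from the quasi-likelihood test. Its log2 fold change was -0.49, and leaving out 1 library moved it to between -0.23 (without saline replicate 1, unadjusted p = 0.394) and -0.74 (without saline replicate 2, unadjusted p = 0.0167), and with no filter on low counts its unadjusted p was 0.0333; its adjusted p was 0.171 or more under every alternative computed.

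Phlda3 and Sesn1 are targets that restrain growth signalling. Phlda3 (chromosome 1, 135693857 to 135696874, forward strand), which competes with the kinase Akt for membrane lipids, was at 31.8 and 24.3 CPM in saline and at 31.8 and 31.1 CPM in treated lungs. Saline replicate 2 was the low library and the other 3 were alike. The fitted ratio was 1.12 (0.809 to 1.56, adjusted p = 0.647). Sesn1 (chromosome 10, 41685931 to 41784420, forward strand), a sestrin that inhibits the growth kinase complex mTORC1, was at 26.4 and 21.7 CPM against 27.7 and 22.2 CPM. Replicate 1 was the higher library in both groups. Its fitted ratio was 1.04 (0.730 to 1.47, adjusted p = 0.905).

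**Figure D2:**
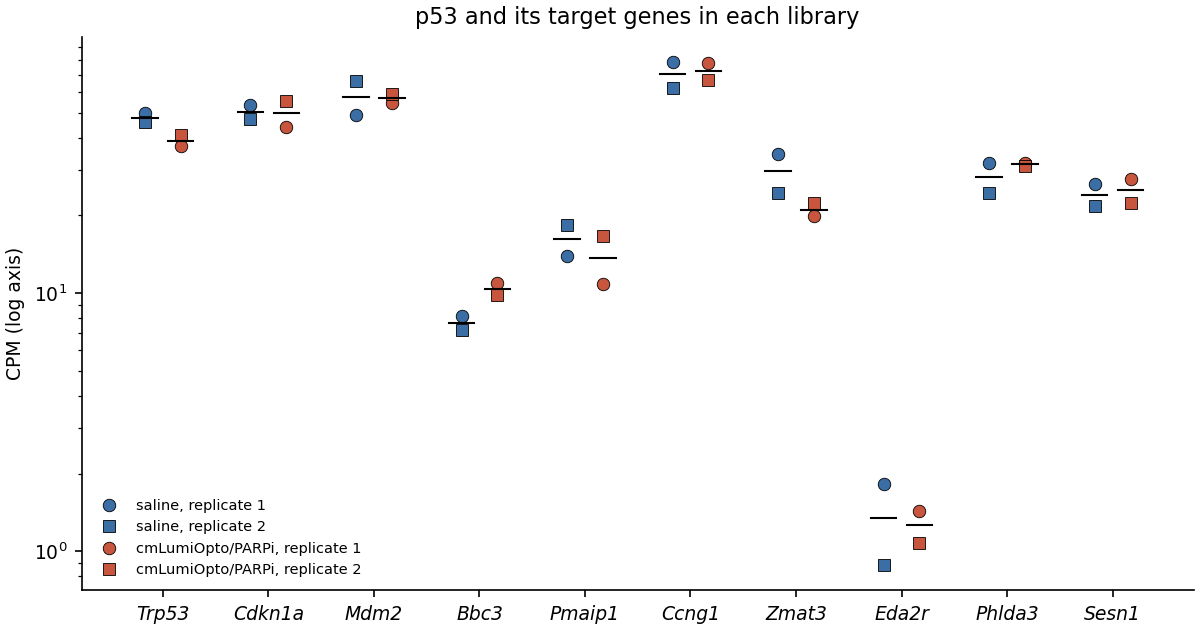
CPM (log axis) of p53 and its 9 targets, with blue for saline, red for cmLumiOpto/PARPi, circles for replicate 1, squares for replicate 2 and a black line at each group mean (n = 2). The groups lie apart for Trp53 and Zmat3 (treated lower) and for Bbc3 (treated higher), and they overlap for the other 7 genes.

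Across the 10 genes, 0 had an unadjusted p under 0.05, against 21.2% of the 15167 tested genes (9.21% higher and 12% lower after treatment). Without saline replicate 2 the share of all genes was 10.7% with 1 of the 10 genes, Zmat3, and with no filter on low counts it was 17.6% with Zmat3 again. No gene of the transcriptome passed an adjusted p of 0.05 in the quasi-likelihood test (0%), where 3221 genes had an unadjusted p under 0.05 (1727 without saline replicate 2 and 1840 without treated replicate 1). Other tools called more genes but none of these 10 by adjusted p: DESeq2 called 6.67% of the transcriptome, edgeR's exact test 5.37%, and the quasi-likelihood test 7.86% with no filter on low counts and 0.0556% without saline replicate 2. By unadjusted p, DESeq2 and the exact test also called 0 of the 10, against 19.5% and 19.4% of all tested genes. The groups did not overlap for 3 of the 10 genes, 1 higher and 2 lower, against 55.1% of all tested genes (27.3% higher and 27.8% lower). All 10 intervals of the fold change held 1, and for 7 of the 10 the whole interval lay within a 2-fold change in either direction. Those 7 are Trp53, Cdkn1a, Mdm2, Pmaip1, Ccng1, Phlda3 and Sesn1. The median log2 fold change of the 10 genes was -0.02 (-0.08 after the correction for length and expression), beside 0.02 over all tested genes. With 2 libraries against 2, an exact permutation of libraries could give no two-sided p below 0.333 for a single gene.

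**Figure D3:**
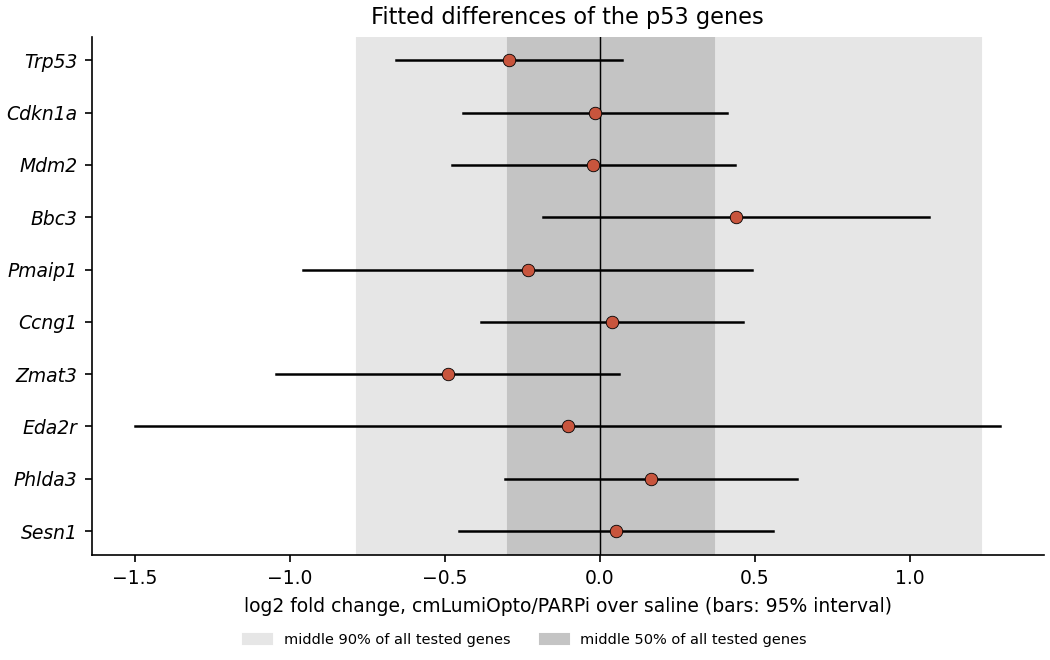
Fitted log2 fold change of each gene, cmLumiOpto/PARPi over saline, with its 95% interval as a bar, over shading for the middle 50% (-0.30 to 0.37) and the middle 90% (-0.78 to 1.23) of all 15167 tested genes. All 10 bars cross 0, and Eda2r, with 13 to 29 counts per library, has the widest.

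Differences between libraries of a group were set beside the difference between the group means, on the log2 CPM scale. In 8 of the 10 genes the larger of the 2 within-group differences exceeded the difference between the group means. Trp53 and Bbc3 were the exceptions. Taking the larger of 2 single-library differences against a difference of means favours the former. The share over all tested genes was not computed, so this count is a description and not a result about these genes. For Mdm2 the saline libraries differed by 0.43 and the group means by 0.01. For Cdkn1a the treated libraries differed by 0.33 and the group means by 0.02. The counts of the 9 targets summed to 4753 and 4008 in saline and to 4852 and 4734 in treated libraries, or 298 and 273 against 279 and 284 CPM, and on the CPM scale both treated sums lay between the saline sums. Within the saline group, replicate 1 had more of 7 of the 9 targets, Mdm2 and Pmaip1 being lower there.

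**Figure D4:**
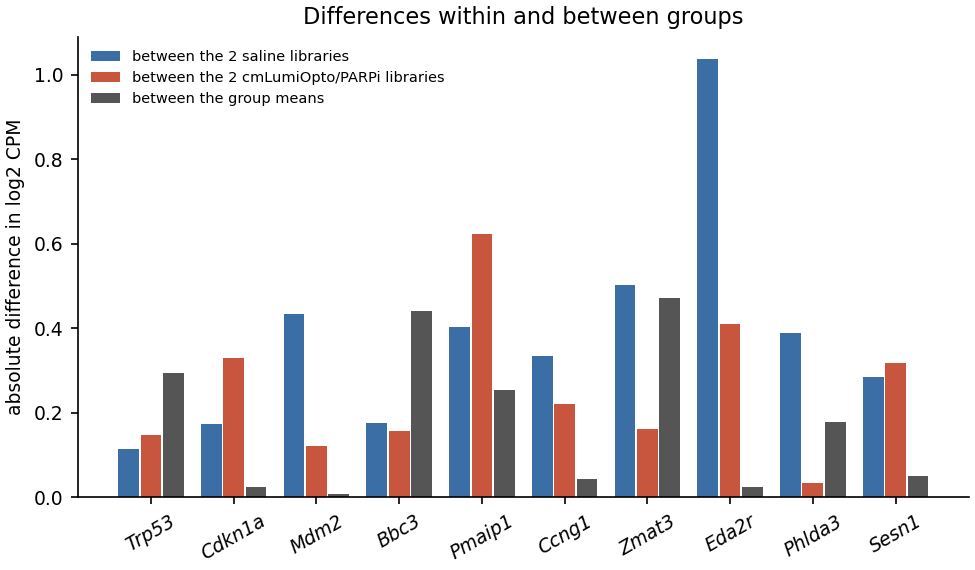
Absolute difference in log2 CPM between the 2 saline libraries (blue), between the 2 cmLumiOpto/PARPi libraries (red) and between the group means (grey) for each gene, as bars from 0. The grey bar is the tallest of the 3 for Trp53 and Bbc3 alone.

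To compare levels between genes, CPM was divided by the transcript length of the count table in kilobases. On this per-length scale, as a mean over the 4 libraries, Ccng1 (20.3) and Phlda3 (19.1) were the most abundant, followed by Cdkn1a (14.1), Mdm2 (11.2) and Trp53 (10.7). Sesn1 (6.16), Pmaip1 (5.47) and Bbc3 (4.26) came next, then Zmat3 (2.22). Eda2r was lowest at 0.222, at the 3.72 percentile of all tested genes, while Ccng1 was at the 81.8 percentile. The ranges over libraries of neighbours overlapped at every step from Ccng1 down to Trp53 and again from Sesn1 down to Bbc3, so the order of such neighbours was not resolved by their ranges. The steps from Trp53 to Sesn1, from Bbc3 to Zmat3 and from Zmat3 to Eda2r had no overlap.

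Relatives of these genes were read beside them, by level per length. Mdm4, the partner of Mdm2 that inhibits p53 without degrading it, was at 2.77 and 4.35 in saline and at 3.79 and 2.83 in treated libraries (log2 fold change -0.10, adjusted p = 0.846). For Ccng2, the relative of Ccng1, the log2 fold change was 0.03 (adjusted p = 0.959). Among the sestrins, Sesn3 was the most abundant and was at 37.4 and 41.8 in saline against 26.1 and 25.2 in treated libraries. Its log2 fold change was -0.63 (adjusted p = 0.138), which became 0.00 after the correction for length and expression. For Sesn2 the log2 fold change was -0.18 (adjusted p = 0.693). Of the family of p53 itself, Trp63 was at 0.301 to 0.507 (log2 fold change 0.18, adjusted p = 0.836), and Trp73 had 4 and 0 counts in saline and 16 and 1 in treated libraries, too few to test.

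The pathway around the 10 genes was read from 7 lists holding 113 further genes, of which 109 had enough reads to be tested (Trp73, Sco2, Trp53cor1 and Ano3 did not). An unadjusted p under 0.05 was found for 31 of them (28.4%, against 21.2% of all tested genes), 10 higher and 21 lower after treatment (13 and 12 with upper quartile scaling), and an adjusted p under 0.05 for 0. Without saline replicate 2, the 31 became 20, against 10.7% of all tested genes. Fold changes followed transcript length across the transcriptome, with shorter genes higher after treatment (Spearman's rho = -0.37 across 15167 genes, which are not independent replicates). A loess curve over length and expression level together was removed, and each list's median after that is given beside the fitted one as corrected. The parts of length and of expression in the correction were not separated. The lung and fibroblast markers given above moved with the same contrast, and their part in these values was not tested.

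Regulators of p53 had the most genes on 1 side. Of 21 tested, 0 were higher and 8 were lower at an unadjusted p under 0.05, against 9.21% and 12% of all tested genes. The median log2 fold change was -0.41, or -0.13 after the correction for length and expression. Hipk2, a kinase that phosphorylates p53 in its death-promoting mode, was at 38.7 and 34.6 CPM in saline and at 15.1 and 16.8 CPM in treated libraries (log2 fold change -1.20, adjusted p = 0.138, corrected -1.03). Ep300, an acetyltransferase that serves p53 as a coactivator, was at 101 and 102 CPM against 75.3 and 65.7 CPM (log2 fold change -0.53, adjusted p = 0.145, corrected -0.08). The smallest unadjusted p-values among regulators with a positive difference belonged to the acetyltransferase Kat8 (log2 fold change 0.19, adjusted p = 0.626) and the checkpoint kinase Chek2 (0.16, adjusted p = 0.726).

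Genes listed here as p53 targets were divided among both directions, and their dependence on p53 was not tested. Over the 5 target lists, 68 genes were tested, of which 9 were higher and 9 lower at an unadjusted p under 0.05. The shares of all tested genes were 9.21% and 12%. The median log2 fold change of the 68 was -0.04, corrected -0.03. Among 12 further arrest targets, 1 was higher and 0 were lower, against 9.21% and 12% of all tested genes. That gene, Rprm, acts at the transition into mitosis and was close to the detection limit. It was at 0.689 and 0.0681 CPM in saline against 1.90 and 1.62 CPM in treated libraries (log2 fold change 2.17, adjusted p = 0.233), the lower saline value being below that limit. Its log2 fold change was 4.53 without saline replicate 1 and 1.33 without saline replicate 2, and its unadjusted p passed 0.05 again only in the first of these among the fits without 1 library. The list median was 0.22, corrected 0.11. The p21 relative Cdkn1c was at 0.73 on the log2 fold scale (adjusted p = 0.268), Plk2 at -0.16 (adjusted p = 0.588) and Gadd45a at -0.15 (adjusted p = 0.591).

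Of 17 further death targets, 3 were higher and 1 was lower, against 9.21% and 12% of all tested genes. The list median was 0.14, corrected 0.03. Siva1, an adaptor that promotes apoptosis, had 399 and 360 counts in saline and 686 and 659 in treated libraries (log2 fold change 0.68, adjusted p = 0.138, corrected 0.49). Bax, the pore-forming protein of the mitochondrial outer membrane, was at 39.2 and 41.4 against 53.5 and 57.5 CPM (log2 fold change 0.46, adjusted p = 0.170, corrected 0.18). The other higher gene was the death receptor gene Fas (log2 fold change 0.90), named after its values were seen. Bcl2l11, which encodes the BH3 protein BIM and so is a relative of Bbc3 and Pmaip1, was at 124 and 127 against 64.7 and 77.1 CPM (log2 fold change -0.82, adjusted p = 0.138, corrected -0.51). For Tnfrsf23, a decoy death receptor, the log2 difference was -0.67 (adjusted p = 0.269).

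The repair list held 2 higher and 0 lower genes of 11 tested, against 9.21% and 12% of all tested genes. The higher genes were Gadd45b and Gadd45g, stress sensors that other pathways besides p53 also induce. Gadd45b was at 9.52 and 7.22 CPM in saline and at 21.7 and 18.3 CPM in treated libraries (log2 fold change 1.26, adjusted p = 0.138, corrected 0.92), and Gadd45g at 9.58 and 12.1 against 21.2 and 23.6 CPM (log2 fold change 1.05, adjusted p = 0.138, corrected 0.67). For the excision repair gene Ercc5 the log2 difference was -0.22 (adjusted p = 0.570). The list median was -0.01, corrected -0.06.

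Metabolic and growth targets held 2 higher and 5 lower genes of 15 tested, against 9.21% and 12% of all tested genes. The list median was -0.25, corrected -0.28. The antioxidant enzyme gene Gpx1 was at 62.5 and 61.3 against 84.9 and 92.1 CPM (log2 fold change 0.52, adjusted p = 0.143, corrected 0.21), and for Dcxr, a sugar reductase gene, the log2 difference was 0.68 (adjusted p = 0.201). Lpin1, a regulator of fatty acid oxidation, had 319 and 315 against 129 and 183 counts (log2 fold change -1.17, adjusted p = 0.138, corrected -1.05), and for Tsc2, an inhibitor of mTORC1, the log2 difference was -0.64 (adjusted p = 0.138, corrected -0.30). Sesn3, given above, and Foxo3 (log2 difference -0.55, named after its values were seen) were also among the lower genes.

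Of 13 genes in the list of feedback and other targets, 1 was higher and 3 were lower, with a median of -0.14, corrected -0.17. The shares of all tested genes were 9.21% and 12%. The ribosomal protein gene Rps27l was at 76.0 and 73.9 against 113 and 119 CPM (log2 fold change 0.63, adjusted p = 0.138, corrected 0.23) and for Dglucy the log2 difference was 0.30 (adjusted p = 0.406). The receptor kinase gene Epha2 (log2 fold change -0.64, adjusted p = 0.166), the lipase gene Abhd4 (-0.52, adjusted p = 0.209) and Ccnk (-0.47, named after its values were seen) were the lower ones. The last list held cell cycle genes that p53 represses through p21 and the DREAM complex. Of 20 tested, 1 was higher and 4 were lower, against the same 9.21% and 12%, with a median of -0.15, corrected -0.15. Foxm1, a transcription factor of the G2 phase, was at 85.8 and 83.6 against 47.4 and 59.8 CPM (log2 fold change -0.66, adjusted p = 0.142), and the proliferation marker Mki67 at 280 and 302 against 166 and 206 CPM (log2 fold change -0.65, adjusted p = 0.143, corrected -0.19). Mybl2 and Chaf1a (log2 fold changes of -0.52 and -0.48, named after their values were seen) were the other lower genes, while for Birc5, which encodes survivin, the log2 difference was 0.47 (adjusted p = 0.205) and for the mitotic kinase gene Aurka 0.24 (adjusted p = 0.451).

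**Figure D5:**
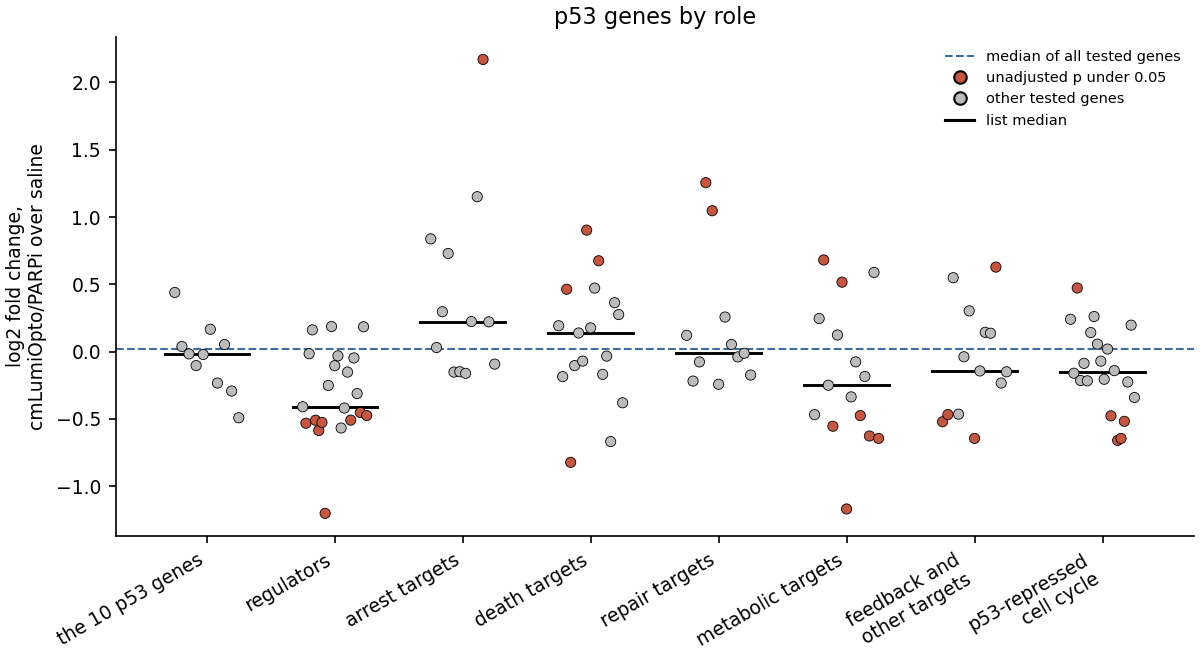
Fitted log2 fold change (cmLumiOpto/PARPi over saline) of every tested gene of the p53 pathway by role, 1 point per gene, red where the unadjusted p was under 0.05, with a black line at the list median and a dashed line at the median of all tested genes (0.02). No red point lies among the 10 p53 genes, whose median is -0.02, and the regulators have 8 red points, all below 0.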

How the data were processed

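Bulk RNA sequencing (poly(A) mRNA) of lungs with 4T1 metastases was used, 2 saline and 2 cmLumiOpto/PARPi libraries. The authors mapped reads with HISAT2 and deposited raw read counts per gene with gene position and length. The strand setting of the counting is not given in the sources used here, so reads of antisense partners cannot be told apart. The study's methods name GRCm38 and the submitters' processing notes mm39. Against GENCODE M21 (GRCm38), 2.85% of 52125 matched genes had equal positions and 96.8% equal spans, so positions are given as the table has them, and promoter letters by GRCm38.p6.

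Counts were tested with edgeR 4.0.16 (R 4.3.3): TMM normalization, filterByExpr (minimum count 10), glmQLFit, glmQLFTest and Benjamini-Hochberg adjustment over 15167 genes, threshold 0.05. Log2 CPM used a prior count of 2. A loess curve (span 0.5) over length and expression gave the corrected values. Chi-square per degree of freedom between libraries of a group was 24.1 (saline) and 41.1 (treated), above counting noise. Totals were 15263375 to 16755228 counts per library. The fit was tested on simulated data, as was the p53 decamer search (Python). Alternatives were DESeq2 1.42.0, edgeR's exact test, other scalings, no filter, the replicate block, the fit without edgeR's legacy option, and leaving out each library.

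The 10 genes and all lists were chosen with earlier results of these data known. Named genes are the 10, their relatives, and from each list up to 2 higher and 2 lower genes with the smallest unadjusted p. Genes named outside the rule are marked. Some genes of the lists are not reported here by name. With 2 libraries per group, precision is limited.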

Additional observations from a re-analysis of the deposited data

How the results depend on the processing

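The number of the 10 genes with an adjusted p under 0.05 was 0 under every alternative computed, and with an unadjusted p under 0.05 it was 0 or 1 (Zmat3, with no filter on low counts and without saline replicate 2). Bbc3 stayed higher and Trp53 and Zmat3 lower in all 12 alternatives with a fit, while each of the other 7 genes changed sign in at least 1. After the correction for length and expression, log2 fold changes were -0.27 (Trp53), -0.03 (Cdkn1a), 0.10 (Mdm2), 0.13 (Bbc3) and -0.45 (Pmaip1). For the rest they were 0.05 (Ccng1), -0.26 (Zmat3), -0.42 (Eda2r), -0.14 (Phlda3) and 0.00 (Sesn1). The median log2 fold change of the 10 genes ranged from -0.11 to 0.12 over the fits without 1 library. By upper quartile and by plain library size, 6 of the 10 were higher and 4 lower, against 4 and 6, and the upper quartile raised the median of all genes by 0.11. Of all genes with an unadjusted p under 0.05, 43.4% were higher, against 63.8% by upper quartile and 54.3% by library size. Over all genes, the count past an adjusted p of 0.05, 0 in the main test, was 2000 with no filter, 1011 with DESeq2, 815 with the exact test and 0 to 31 without 1 library. Within the 109 pathway genes it was 18 with no filter, 11 with DESeq2 and 8 with the exact test, and the count at an unadjusted p under 0.05 (31 in the main test) was 20 to 30 without 1 library and 25 to 36 otherwise. The unadjusted calls of Rprm, Bax, Gpx1, Dcxr, Epha2, Abhd4, Birc5 and Sesn3 were lost without saline replicate 2, that of Bax also without saline replicate 1, those of Rprm, Dcxr and Abhd4 without treated replicate 1, and those of Rprm, Bax and Birc5 without treated replicate 2. The cause of these shifts was not tested.

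Libraries share replicate numbers but not mice. With the replicate block, 1822 genes passed over all genes, 20 of the pathway genes and 0 of the 10, whose smallest adjusted p was then 0.171. Deviations of same-numbered libraries correlated across genes (Pearson's r = 0.36, Spearman's rho = 0.30 over 15167 genes). The numbering of the libraries within a group sets the sign of this correlation, so it cannot decide whether libraries were paired.

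A p53 decamer pair was found for 2 of the 8 searched genes with at most 1 mismatch (0.635% of genes) and for 5 with at most 3 (17.1%). Wider windows around the start were planned and not run, since no genome sequence was used here. Eda2r had the fewest counts and the widest interval of the 10 p53 genes.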
